A study of Xenopus tropicalis with 11 samples.

Results

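Stage 8-only Foxh1 regions that held Foxa in the gastrula are places in the Xenopus tropicalis genome where a Foxh1 peak was called at stage 8 and a Foxa peak at stage 10.25, but no Foxh1 peak at stage 9, no gastrula Foxh1 peak and no gastrula Smad2/3 peak. They were chosen by the presence or absence of called peaks, after merging peaks of the 6 deposited lists that overlapped by at least 1 base. Of 88697 merged regions, 302 met the rule. A stage 8 Tle peak was allowed and not required. Tle peaks took part in the merging, and 7 of the 302 regions were joined only through one.

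Embryos of the Nigerian strain were raised at 25 °C, fixed whole and used for chromatin immunoprecipitation with sequencing (ChIP-seq). Foxh1 was precipitated at stages 8 and 9 with a custom antibody, each list standing for 2 pooled replicates. Tle was precipitated at stage 8 and Foxa at stage 10.25, each in 1 library. The 2 remaining lists, gastrula Foxh1 and gastrula Smad2/3, are the authors' reanalysis of an earlier series and belong to a slightly later gastrula stage than Foxa. Each factor and stage has a single list, which leaves the spread between embryos and the read depth unknown. Whole embryos were used, so peaks of 2 factors at 1 place need not come from the same cells. Foxa was mapped at stage 10.25 alone, so Foxa before that stage was not analysed here.

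Foxh1 is a maternally supplied forkhead factor that recruits Smad2/3, the transcriptional effectors of Nodal signalling, to genes of mesoderm and endoderm. Foxa proteins are forkhead factors too. They can bind closed chromatin and are made in the endoderm and the organizer. Tle proteins are Groucho-family co-repressors that do not bind DNA themselves and are brought to it by other factors. Stage 8 is a blastula stage around the start of zygotic transcription, and gastrulation begins at about stage 10.25.

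Foxa was rare at Foxh1 regions found at stage 8 alone. The 302 regions were 2.80% of the 10788 stage 8-only Foxh1 regions. Of all 28275 regions with stage 8 Foxh1, 20.0% held a Foxa peak. Of the 16510 regions with Foxh1 at stages 8 and 9 that lacked gastrula Foxh1 and Smad2/3, 27.0% did. The rule, which asks for Foxa and bars later Foxh1, sets the classes but does not fix these shares. They were not tested and are given as a description.

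The number was set beside the number found with the Foxa list at shifted positions. The whole Foxa list was moved by 10, 20, 30, 40 and 50 kb in both directions, and the rule was applied again each time. The 10 moved lists gave 179 to 223 regions with a mean of 204, so the 302 regions were 1.48 times that mean. Moves of 100 to 500 kb gave 164 to 228 regions, with a mean of 202. Most of the 302 regions were therefore matched in number by moved lists, which do not form a like baseline. At the deposited positions the rule bars Foxa peaks on stage 9 Foxh1, as in 4455 regions with stage 8 Foxh1 and 5206 without. Once moved, such peaks can count, so the moved counts are raised and the share matched is not settled. This holds for each comparison with moved lists below. For regions with Foxh1 at stages 8 and 9, the same moves of 10 to 50 kb gave 417 to 671 regions, against 4455 at the deposited positions. No test was made of this, since Foxa and stage 9 Foxh1 are both part of the rule.

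Moves of 1000 to 3000 bases, chosen after the data were examined, gave more regions than the longer moves did. The 42 moved lists held 222 to 296 regions with a mean of 260, which puts the 302 regions at 1.16 times that mean. With moves of 100 or 200 bases in either direction the count was 298 to 314, about that of the deposited positions. The count of regions thus hardly depended on the exact position of the Foxa list within 200 bases in either direction. Moves this short part close centres by construction while the peaks can still overlap. They therefore do not bear on the alignment of the peak centres, for which only the longer moves are used below.

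**Figure D1:**
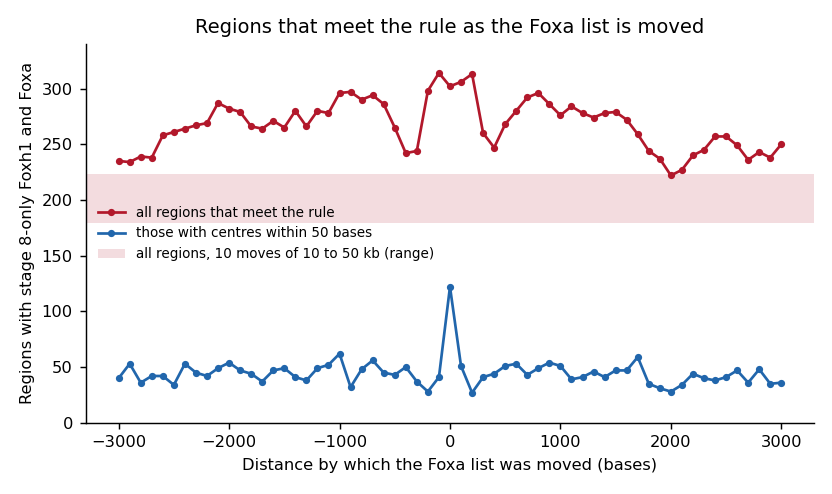
Number of regions that met the rule (y axis) when the Foxa list was moved by the distance on the x axis, in bases, with the shaded band giving the range of 179 to 223 over the 10 moves of 10 to 50 kb. The count of all regions stayed near its value of 302 for moves of 100 and 200 bases, whereas regions with centres within 50 bases fell from 122 at the deposited position to 28 to 62 at moves of 1000 to 3000 bases.

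The excess over moved lists lay in regions where Foxh1 and Foxa were centred on the same spot. The distance from the Foxh1 summit to the middle of the Foxa peak had a median of 69.5 bases, with quartiles of 28 and 177 bases. The medians with moved lists were 136 to 173 bases. In 122 regions the centres lay within 50 bases of each other, where moved lists of 10 to 50 kb gave 22 to 38 regions, a ratio of 3.97 to their mean. In 71 regions they lay within 25 bases, against 9 to 24 with moved lists. Beyond 100 bases there was no excess over moved lists. As these also count Foxa peaks that the rule bars at their deposited positions, an excess there is not excluded. The centres of 55 regions lay over 100 and up to 200 bases apart, against 44 to 81, and those of 68 lay over 200 bases apart, against 65 to 82. Against moves of 1000 to 3000 bases the count within 50 bases was 2.82 times the mean, with 28 to 62 regions in the moved lists. The 123 regions with centres over 100 bases apart were fewer than in each of these 42 lists, which gave 144 to 201. The distance between centres was shorter still in regions with Foxh1 at stages 8 and 9 and Foxa. Its median there was 50 bases, with quartiles of 22 and 104 bases. Close centring was thus not particular to stage 8-only regions, and this difference was not tested. The Foxa list gives no summits, so each distance sets a summit against the middle of a peak.

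**Figure D2:**
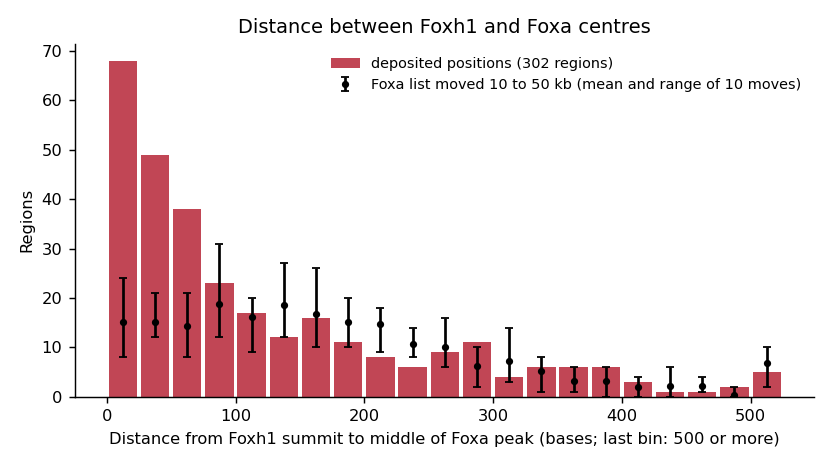
Number of regions (bars) by the distance from the Foxh1 summit to the middle of the Foxa peak, in bins of 25 bases, with the mean and range over the 10 moved Foxa lists as points with bars. The first 2 bins hold 68 and 49 regions, above the moved ranges of 8 to 24 and 12 to 21, and beyond 100 bases most bars lie inside or near the moved range.

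Most of the regions held 1 Foxh1 peak and 1 Foxa peak, with a Tle peak as well in 192 regions. Of the 302 regions, 300 held 1 stage 8 Foxh1 peak and 297 held 1 Foxa peak. In 295 the Foxh1 and Foxa peaks overlapped each other directly, and 7 were joined only through a Tle peak. The overlap had a median of 177 bases and ran from 8 to 576 bases. The Foxh1 summit lay inside the Foxa peak in 194 regions. At the edge of the rule, 6 regions had an overlap of 20 bases or fewer, and 11 stage 8-only regions counted as lacking Foxa had a Foxa peak within 20 bases of them.

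The Foxh1 peaks of these regions were low ones for the stage 8 list and resembled those of other stage 8-only regions in score. Their scores, which are the authors' and equal 10 times the −log10 p of the peak, ran from 320 to 1714 with a median of 444.5, where 320 is the lowest score of the list. Stage 8-only regions without Foxa had a median of 447, and regions of stages 8 and 9 with Foxa had one of 660. The probability that a region of the 302 had the higher score of a pair (the area under the curve) was 0.487 against stage 8-only regions without Foxa and 0.267 against regions of stages 8 and 9 with Foxa. Of the 302 regions, 154 lay in the lowest of 3 equal classes of the stage 8 list by score and 34 in the highest. The authors' fold enrichment over the local background had a median of 13.78, against 14.59 in regions without Foxa. Stage 9 absence was read from a list with a lowest score of 256, and a region with a stage 9 signal under the authors' threshold would also count as stage 8-only.

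The stage 8 Foxh1 peaks were wider than those of other stage 8-only regions. Their median width was 352 bases against 276 without Foxa, with an area under the curve of 0.669, and 288 to 314 bases in the regions formed with moved lists. Regions with Foxh1 at stages 8 and 9 had medians of 376 bases with Foxa and 309 without. Wider peaks with Foxa were thus not particular to stage 8-only regions. Among the widest of 3 equal classes of stage 8-only Foxh1 peaks, with widths over 330 bases, 166 regions met the rule, against 62 to 92 with moved lists. In the middle class 98 did, against 54 to 82, and among the narrowest, of 242 bases or less, 38 did, against 43 to 65. The excess over moved lists was thus found in the middle and widest classes. By Foxh1 score it was found in all 3 classes, with ratios to the mean of moved lists of 1.60 in the lowest, 1.63 in the middle and 1.24 in the highest class.

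The Foxa peaks were low ones as well. Their scores, a value of the authors' peak caller, had a median of 8.762 with quartiles of 6.184 and 13.54. Foxa peaks in regions with Foxh1 at stages 8 and 9 had a median of 15.4, and those in regions with Foxh1 at stage 9 alone had one of 20.33. Foxa peaks without any Foxh1, gastrula Smad2/3 also being absent, had a median of 9.369. A Foxa peak of the 302 regions was the higher of a pair with a probability of 0.300 against regions of stages 8 and 9, 0.238 against stage 9-only regions and 0.456 against Foxa regions without Foxh1. In the regions formed with moved Foxa lists the median Foxa score was 10.7 to 14.5, above that of the 302 regions in each of the 10 lists. In the lowest of 3 equal classes of the Foxa list by score 138 regions were found, against 47 to 78 with moved lists. In the highest class there were 61, below each of the 10 moved lists, which gave 66 to 100. Regions that combined stage 8-only Foxh1 with a high Foxa peak were therefore fewer than with the Foxa list moved. The rule bars Foxa peaks on stage 9 Foxh1 at deposited positions, and these, with medians of 15.4 and 20.33, can count once moved. The lower number and the lower median can thus be set by the rule, and no deficit is shown.

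**Figure D3:**
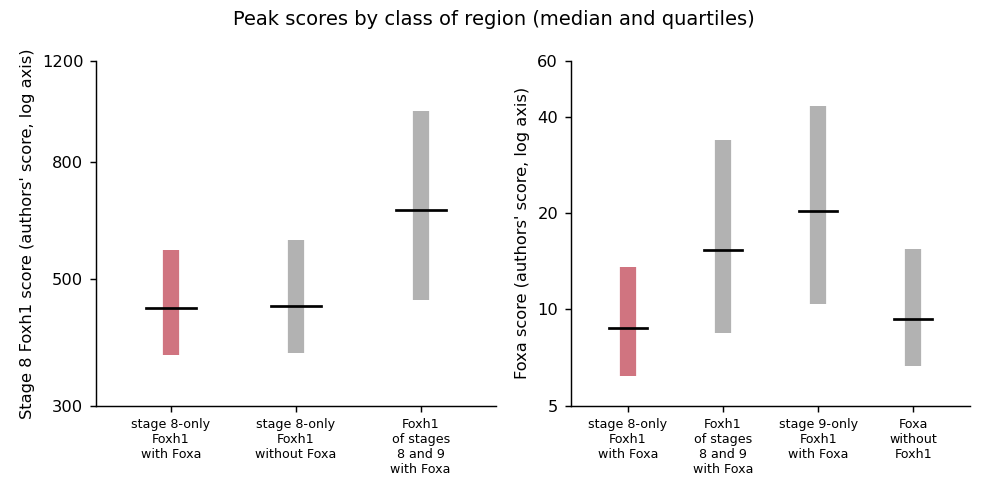
Median (black line) and quartiles (coloured bar) of the authors' stage 8 Foxh1 score (left) and Foxa score (right), both on log axes, by class of region, with the 302 regions in red. Their Foxh1 median of 444.5 lies beside the 447 of stage 8-only regions without Foxa, and their Foxa median of 8.762 is the lowest of the 4 classes shown.

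Tle, the co-repressor, had a peak in 192 of the 302 regions. That share of 63.6% (Wilson 95% interval 58.0 to 68.8%) compares with 58.0% of all regions with stage 8 Foxh1. It was higher than the 52.2% (51.3 to 53.2%) of the 10486 stage 8-only regions without Foxa, and the odds ratio was 1.60 with a 95% interval from 1.26 to 2.02 (two-sided Fisher's exact test, p = 0.000434 after Benjamini-Hochberg adjustment over 4 tests). The test compares lists of regions and carries no variation between embryos. With direct overlap, counted by stage 8 Foxh1 peaks, which leaves out joining through Tle, the odds ratio was 1.53. Within classes by width of the Foxh1 peak the difference did not pass the threshold. In 3 equal classes, a split chosen after the data had been seen, the Tle shares with and without Foxa were 28.9 and 24.1% among the narrowest peaks, 45.9 and 52.9% in the middle class and 81.9 and 81.3% among the widest (Fisher's exact adjusted p = 0.453, 0.183 and 0.919). The narrowest class held 38 of the 302 regions, and its odds ratio of 1.28 had an interval from 0.633 to 2.59. Foxa lists moved by 10 to 50 kb gave regions with Tle shares of 57.2 to 65.2%, a range that holds the 63.6%. Moves of 100 to 500 kb gave 54.9 to 62.8%, all below it. The odds ratios with moved lists were 1.21 to 1.71 and 1.10 to 1.54 in the same order, all above 1. The 1.60 lay inside the first range and above the second. As the test takes an odds ratio of 1 as its reference, its p-value does not set the 302 regions apart from moved lists. At the deposited positions the odds ratio was 0.876 where 50% of both peaks had to overlap. Where centres had to lie within 100 bases it was 1.06, and neither passed the threshold. Both were counted by stage 8 Foxh1 peaks, and the stricter rule applied to Tle as well as to Foxa. The Tle share without Foxa was 46.1 and 42.7% under these rules, against 53.0% with direct overlap.

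The Tle share differed with the distance between the Foxh1 and Foxa centres, a split chosen after the data had been seen. Tle was found at 64 of the 122 regions with centres within 50 bases (52.5%, 43.7 to 61.1%). It was found at 32 of 57 regions at 51 to 100 bases, at 39 of 55 at over 100 and up to 200 bases and at 57 of 68 beyond 200 bases (83.8%, 73.3 to 90.7%). The Foxh1 peaks widened in the same order, with median widths of 309, 342, 375 and 460.5 bases, and the part of width in this order was not tested. The 7 regions joined through a Tle peak hold Tle by construction. Without them, Tle was found at 50 of 61 regions beyond 200 bases (82.0%, 70.5 to 89.6%) and at the same 64 of 122 within 50 bases. With Foxa lists moved by 10 to 50 kb the Tle shares were 50.5% within 50 bases and 70.3% beyond 200 bases, pooled over the 10 lists. Over all distances, the 192 regions with Tle were 1.56 times the mean of 123 with these moved lists, and the 110 without Tle were 1.35 times the mean of 81.2.

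Where Tle was present, its peak usually lay over the Foxh1 summit. It covered that summit in 177 of the 192 regions and the middle of the Foxa peak in 143. In 43 regions it covered the Foxh1 summit and not the Foxa middle, and in 9 regions the reverse. The Tle score had a median of 11.93 against 10.49 in stage 8-only regions without Foxa, and an area under the curve of 0.540. Against regions of stages 8 and 9 with Foxa, which had a median of 13.9, the area was 0.435. Foxa lists moved by 10 to 50 kb gave medians of 10.4 to 12.8, a range that holds the 11.93.

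Against regions that held Foxh1 at stage 9 too, and Foxa in the gastrula, the Tle share was not shown to differ. Tle was found at 68.4% (67.0 to 69.7%) of these 4455 regions, and the odds ratio was 0.807, with an interval from 0.633 to 1.03 (Fisher's exact test, adjusted p = 0.0854). The Foxh1 scores of the 2 sets differ, and within 3 equal classes by score the Tle share was the higher one in the 302 regions. It was 53.6 against 48.8% in the lowest class, 79.3 against 66.2% in the middle class and 94.7 against 87.9% in the highest, which held 19 of the 302 regions (Fisher's exact adjusted p = 0.222, 0.0178 and 0.718). The pooled direction was therefore opposite to that within the score classes, where 1 of the 3 differences passed the threshold. Within 3 classes by Foxh1 width the odds ratios were 0.997, 0.937 and 0.665, none of which passed it. Stricter rules for a shared peak counted stage 8 Foxh1 peaks and applied to Tle as well. The share was then the lower one at stage 8-only peaks with Foxa. The odds ratios were 0.546 where 50% of both peaks had to overlap and 0.634 with centres within 100 bases (Fisher's exact adjusted p = 0.000867 and 0.00463).

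**Figure D4:**
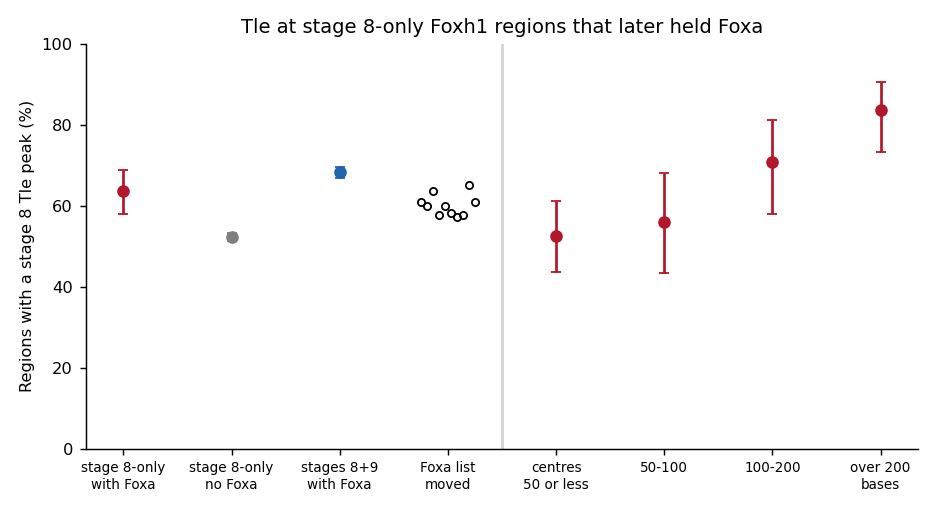
Share of regions with a stage 8 Tle peak, in percent, for the 302 regions, 2 other classes of region and the regions formed with each of the 10 Foxa lists moved by 10 to 50 kb (left of the line), and for the 302 regions split by the distance between Foxh1 and Foxa centres (right). Bars are Wilson 95% intervals and cover the counting error of regions only; the share of 63.6% lies inside the range of these moved lists, and the shares by distance run from 52.5% within 50 bases to 83.8% beyond 200 bases.

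Although stage 9 Foxh1 was absent from the regions themselves, it was often close by. A stage 9 Foxh1 peak lay within 5 kb of 109 of the 302 regions (36.1%, 30.9 to 41.7%) and of 29.9% (29.0 to 30.8%) of the stage 8-only regions without Foxa. This gave an odds ratio of 1.33, with an interval from 1.04 to 1.68 (Fisher's exact test, adjusted p = 0.0292). In 29 regions a stage 9 peak lay within 500 bases and in 4 within 100 bases, the nearest at 27 bases. Within 1000 bases the shares were 17.5 and 10.4%. The regions formed with Foxa lists moved by 10 to 50 kb had a stage 9 peak within 5 kb in 33.0 to 44.6%, and those with moves of 100 to 500 kb in 25.4 to 34.9%. The 36.1% was thus matched when Foxa peaks were moved within the same neighbourhood, and lay above each of the lists moved further. Odds ratios against regions without Foxa were 1.15 to 1.90 with moves of 10 to 50 kb, a range that holds the 1.33. With moves of 100 to 500 kb they were 0.788 to 1.25. The test takes 1 as its reference and does not set the 302 regions apart from lists moved by 10 to 50 kb.

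Gastrula Foxh1 or Smad2/3 lay within 5 kb of 12 of the 302 regions (3.97%, 2.29 to 6.82%), against 1.32% (1.12 to 1.55%) of the stage 8-only regions without Foxa. This gave an odds ratio of 3.10, with an interval from 1.70 to 5.66 (Fisher's exact test, adjusted p = 0.00205). Gastrula Foxh1 accounted for 11 of these regions and Smad2/3 for 5, some having both. Within 20 kb the shares were 10.6 and 3.81%, and within 1000 bases, where 2 of the 302 regions had such a peak, the difference did not pass the threshold. Moved lists of 10 to 50 kb gave 1.68 to 4.69% within 5 kb, a range that holds the 3.97%, and moves of 100 to 500 kb gave 1.10 to 3.26%, all below it. The odds ratios were 1.20 to 3.64 with moves of 10 to 50 kb, a range that holds the 3.10. With moves of 100 to 500 kb they were 0.780 to 2.45. Here too the test does not set the 302 regions apart from lists moved by 10 to 50 kb. The gastrula lists are short, so a region without a gastrula peak nearby is not shown to lie far from gastrula binding.

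Foxa itself was dense around these regions. Another Foxa peak, outside the region, lay within 5 kb of 151 regions (50.0%, 44.4 to 55.6%), against 24.9% of stage 8-only regions without Foxa and 59.5% of regions of stages 8 and 9 with Foxa. Since the rule chose regions by Foxa, this is a description. The median gap to the next Foxa peak was 4943 bases, against 15710 bases without Foxa.

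**Figure D5:**
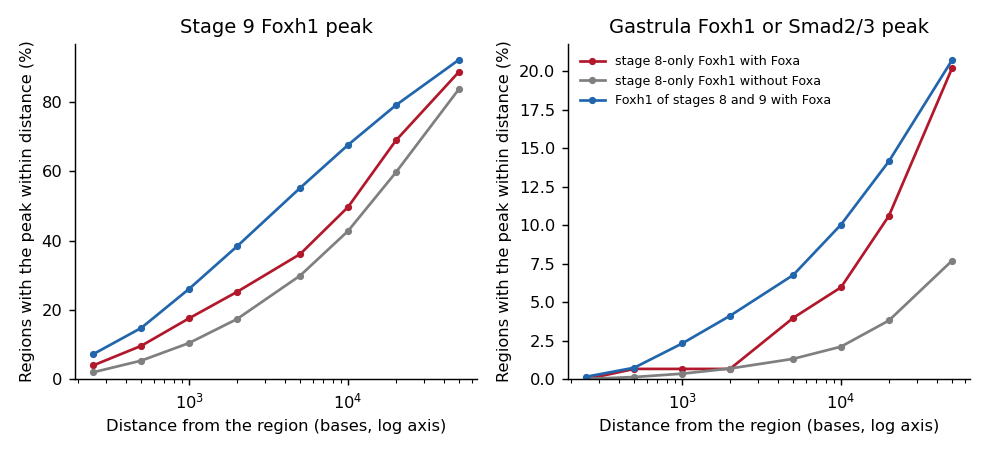
Share of regions, in percent, with a stage 9 Foxh1 peak (left) or a gastrula Foxh1 or Smad2/3 peak (right) within the distance on the x axis, in bases on a log axis, outside the region itself. At 5000 bases the stage 8-only regions with Foxa (red) stand at 36.1% and 3.97%, between those without Foxa (grey, 29.9% and 1.32%) and those with Foxh1 at stages 8 and 9 and Foxa (blue, 55.2% and 6.76%).

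The regions with the highest Foxh1 fold enrichment were wide and had Foxh1 and Foxa set well apart. The highest lay on scaffold 5b from 1532210 to 1533484, with a Foxh1 fold of 43.7, a Foxa score of 21.3 and a Tle score of 81.7. Its Foxh1 and Foxa centres were 769 bases apart, a stage 9 Foxh1 peak began 304 bases from its edge and a gastrula peak 382 bases from it. The next was on scaffold 4 from 120152713 to 120153596, with a fold of 30.2, a Foxa score of 8.45, centres 479 bases apart and a stage 9 peak 695 bases away. Both therefore lay beside later Foxh1 peaks rather than far from any. A region on scaffold 8 from 86355850 to 86356735 followed with a fold of 28.7, and a stage 9 peak lay 379 bases away. The region on scaffold 84 from 228993 to 229675 had a fold of 28.3 and its nearest stage 9 peak at 13684 bases. The fifth, on scaffold 2 from 118172310 to 118172920, had a fold of 28.2 and its nearest stage 9 peak at 38250 bases. All 5 carried Tle, and in each the centres were at least 263 bases apart.

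The regions with the highest Foxa scores had Foxh1 folds of 12.8 to 20.5. The highest Foxa score, 79.6, was on scaffold 8 from 78903232 to 78904431, where the Foxh1 fold was 12.8, the centres were 232 bases apart and Tle had no peak. The second, 73.5, was on scaffold 6 from 74626745 to 74627277, with a Foxh1 fold of 14.3, a Tle score of 12.7 and centres 34 bases apart. The third, 71.8, was on scaffold 6 from 87140196 to 87140797, with the Foxh1 fold of 20.5. Scaffold 33 had a region from 186233 to 186777 with a Foxa score of 69.2, and scaffold 4 one from 80091662 to 80092195 with 68.5. These 3 carried Tle, with centres 85, 69 and 174 bases apart. None of the 5 had a stage 9 Foxh1 peak within 1000 bases, the nearest being 1959 bases from the scaffold 4 region.

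The highest Tle score among the 302 regions was 162, on scaffold 9 from 65989861 to 65991141, with a Foxh1 fold of 26.0, a Foxa score of 14.6 and a stage 9 peak 69172 bases away. The regions on scaffolds 5b and 8 named for their Foxh1 fold came next, with Tle scores of 81.7 and 80.2. A region on scaffold 8 from 20826975 to 20827507 had a Tle score of 62.7 with a Foxh1 fold of 12.9. A region on scaffold 1 from 113778544 to 113779520 had 56.5, with a Foxh1 fold of 24.7 and a Foxa score of 23.9. Of these 5 regions, 4 had a Foxh1 fold of 24.7 or more, above the upper quartile of 17.06 of the 302 regions.

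By the sum of the ranks of Foxh1 fold and Foxa score, the region on scaffold 84 came first and that on scaffold 5b second. The third was on scaffold 4 from 35238772 to 35239360, with a Foxh1 fold of 21.9, a Foxa score of 32.3, a Tle score of 18.4 and centres 141 bases apart. The scaffold 6 region from 87140196 and the scaffold 1 region from 113778544 completed these 5. All 5 carried Tle, beside the share of 83.7% in the highest class by Foxh1 score given above.

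The 302 regions were spread over the genome. The 10 numbered scaffolds from 1 to 10 held 288 of them, and the other 14 lay on 13 further scaffolds. The share of stage 8-only regions with Foxa ran from 1.88% (1.16 to 3.03%) on scaffold 7 to 3.66% (2.66 to 5.03%) on scaffold 8, and these intervals overlap. On scaffold 7 the 16 regions were no more than the 11 to 25 of the moved lists, while on scaffold 8 there were 36 against 15 to 33. Few regions stood close together, with 8 of the 302 having another one within 20 kb and 27 within 100 kb.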

How the data were processed

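Peak lists of 4 of the 11 samples and 2 lists of the whole series were used, leaving 7 samples (RNA polymerase II and input DNA) not analysed here. The tools named, without a role, per the submitters' processing notes are MACS2 2.0.10, HOMER 4.7, Bowtie 1.0.0 and SAMtools. Not given in the sources used here are the build, the thresholds and the controls, so no gene or sequence was assigned. In the deposited Foxh1 and Smad2/3 lists each peak has a score, a fold enrichment (a ratio over the local background), a −log10 p and a summit. The deposited score of the Tle and Foxa lists is of unstated kind. Scores rank peaks within 1 list only.

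Coordinates are those of the lists, counted from 1. A region takes the values of its highest-scoring peak per list, and the middle of Tle and Foxa peaks served as their centre. Moved Foxa lists were wrapped within each scaffold, up to the furthest peak end of any list. Wilson intervals and the two-sided Fisher's exact test, adjusted over 4 tests, were computed over regions, which are neither replicates nor independent. They cover counting error only. Regions named are the 5 highest by Foxh1 fold, Foxa score, Tle score and the sum of the ranks of the first 2. The regions, classes and tests were chosen with earlier results of these data known. Alternatives covered the overlap rule, shorter lists, score and width classes and neighbour distances. Their p-values were not adjusted for the number of alternatives. The code was tested on simulated data and run with scipy 1.17.1, pandas 2.3.3, numpy 2.4.6 and matplotlib 3.10.9 under Python 3.11.15.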

Additional observations from a re-analysis of the deposited data

How the results depend on the processing

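No paired analysis was possible because each factor and stage has 1 list, and no replicate could be left out. Counted by stage 8 Foxh1 peaks instead of regions, the number was 300 with direct overlap of peaks. It was 181 where centres had to lie within 100 bases and 147 where 50% of both peaks had to overlap, rules that applied to Tle as well. Counted by regions, the number was 249 without those that had a stage 9 peak within 1000 bases. It was 110 with the upper 50% of the Foxa list and 76 with the upper 50% of the stage 8 Foxh1 list. The ratio of the number of regions to moved lists was 1.49 with moves of 100 to 500 kb, 1.45 on the 10 longest scaffolds and 1.16 with moves of 1000 to 3000 bases.

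The Tle odds ratio of 1.60 against stage 8-only regions without Foxa turned to 0.876 where 50% of both peaks had to overlap and to 0.757 in the middle width class. It no longer passed the threshold at 1.06 with centres within 100 bases, 1.47 in the upper 50% of the Foxa list, 1.45 in the lowest score class, and 1.28 and 1.04 in the narrowest and widest classes. It passed at 1.53 with direct overlap, 1.73 and 2.34 in the upper 50% of the Tle and the Foxh1 list, 1.85 and 2.05 in the middle and highest score classes and 1.56 without regions beside a stage 9 peak. The Tle odds ratio of 0.807 against regions of stages 8 and 9 with Foxa turned to 1.72 in the upper 50% of the stage 8 Foxh1 list and to 1.21, 1.96 and 2.47 in the score classes. It passed the threshold at 0.546 where 50% of both peaks had to overlap, 0.634 with centres within 100 bases, 0.663 in the upper 50% of the Foxa list and 0.750 without regions beside a stage 9 peak. The odds ratio for gastrula peaks nearby was 1.88 within 1000 bases, where it rests on 2 regions and did not pass, and that for stage 9 peaks passed at 1000 and 20000 bases. The shorter lists and classes held fewer regions, and the causes of these changes were not tested. The unknown depth limits each statement that a peak was absent.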

Other observations

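Other blastula peaks near the 302 regions were counted as well. Another Tle peak, outside the region, lay within 1000 bases of 86 regions (28.5%, Wilson 95% interval 23.7 to 33.8%), against 21.0% (20.3 to 21.8%) of stage 8-only regions without Foxa and 23.5% (22.3 to 24.7%) of regions of stages 8 and 9 with Foxa. Another stage 8 Foxh1 peak lay within 1000 bases of 60 regions (19.9%, 15.8 to 24.7%), against 17.1% and 22.2% in the same order. The interval of this Foxh1 share holds both of the other shares, so no difference is shown. Neither the Tle nor the Foxh1 shares were tested.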
